A study of Mus musculus with 6 samples.

Results

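CD8 T cells with Gzmc to Gzmf are tumor CD8 T cells chosen by their UMI counts (unique molecular identifiers, 1 per captured RNA molecule) of the granzyme genes Gzmc, Gzmd, Gzme and Gzmf. The rule took barcodes of 600 to 4000 detected genes, of whose UMIs at most 10% were mitochondrial, that held at least 2 UMIs of Cd3d, Cd3e and Cd3g together, at least 1 of Cd8a and Cd8b1, none of Cd4, at least 2 of Gzmc to Gzmf, at most 1 of the cycling genes Mki67 and Top2a, none of the B cell genes Cd79a, Cd79b and Ms4a1, and at most 1 of the macrophage genes C1qa, C1qb and C1qc. It found 55 cells among 1599 CD8 T cells (the same rule without the granzyme term), 3851 T cells, 30067 barcodes within the filters and 52899 barcodes in all. The values of these rule genes chose the members, so their levels in the cells are given as a description and were not tested against other cells. Treatment was no part of the rule, and of the values counted with it only the shares of cells were tested between the treatments.

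The cells came from CD45+ fractions, isolated with beads from cryopreserved digests of B16-F10 melanomas in female C57BL/6 mice aged 6 to 10 weeks, and were read by droplet 5′ single-cell RNA-Seq. Tumors grew from 250000 cells, and αPD-1 antibody was given to all mice from day 7 (150 µg, 3 doses a week). The αPD-1 group (3 samples) received vehicle with 5% DMSO, and the αPD-1 + corin group (3 samples) received 200 µg of corin daily from day 6, an inhibitor of the CoREST complex. There were 10 mice in an arm. Since it is not stated from which of them a sample was taken, the p-values measure only the spread between these samples.

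Cytotoxic T cells kill by releasing granules onto a target cell. Perforin, the product of Prf1, opens the membrane, and granzymes are serine proteases that enter and cleave proteins inside. Granzymes A and B are the best known, while the mouse genes Gzmc to Gzmg are rodent relatives of Gzmb in the same gene cluster. They are known from strongly stimulated killer cells, and what their proteases cleave is less well understood.

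The αPD-1 samples 1 to 3 held 7, 9 and 4 of the cells. The αPD-1 + corin samples held 0, 11 and 24, so 1 sample contributed nothing and another 24 of 55. Summed over the cells of a sample, there were 29884, 81145 and 31297 UMIs under αPD-1, and 65450 and 150629 UMIs in αPD-1 + corin samples 2 and 3. Their median depth was 5520 UMIs, against 3124 UMIs in the 1544 other CD8 T cells. A deeper cell reaches 2 UMIs more easily, so some comparisons were repeated with cells thinned to equal depth or taken from a range of depth. Among all barcodes, 299 occurred in more than 1 sample. Of these, 1 belonged to a member and none was a member in both of its samples. A doublet score marked 2 of the 55 cells when the highest scores of a sample were marked, 0.4% for each 1000 of its barcodes. The own threshold of the scoring tool marked 0 barcodes in every sample.

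Among the 1599 CD8 T cells, 1500 had no UMI of Gzmc to Gzmf and 44 had 1, just outside the rule. Just inside it, 10 cells had 2 UMIs, 5 had 3 and 3 had 4. Another 19 cells had 5 to 19 UMIs and 18 had 20 or more, of which 7 had at least 100. The 55 cells held 2792 such UMIs, and the cell with most, in αPD-1 sample 2, held 553 of them, or 19.8%. The class is thus a broad range of levels with no gap at its lower edge, and a few cells carry most of the RNA. The top cell held 55.7%, 61.5% and 77.0% of these UMIs under αPD-1, and 31.8% and 49.9% in αPD-1 + corin samples 2 and 3.

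**Figure D1:**
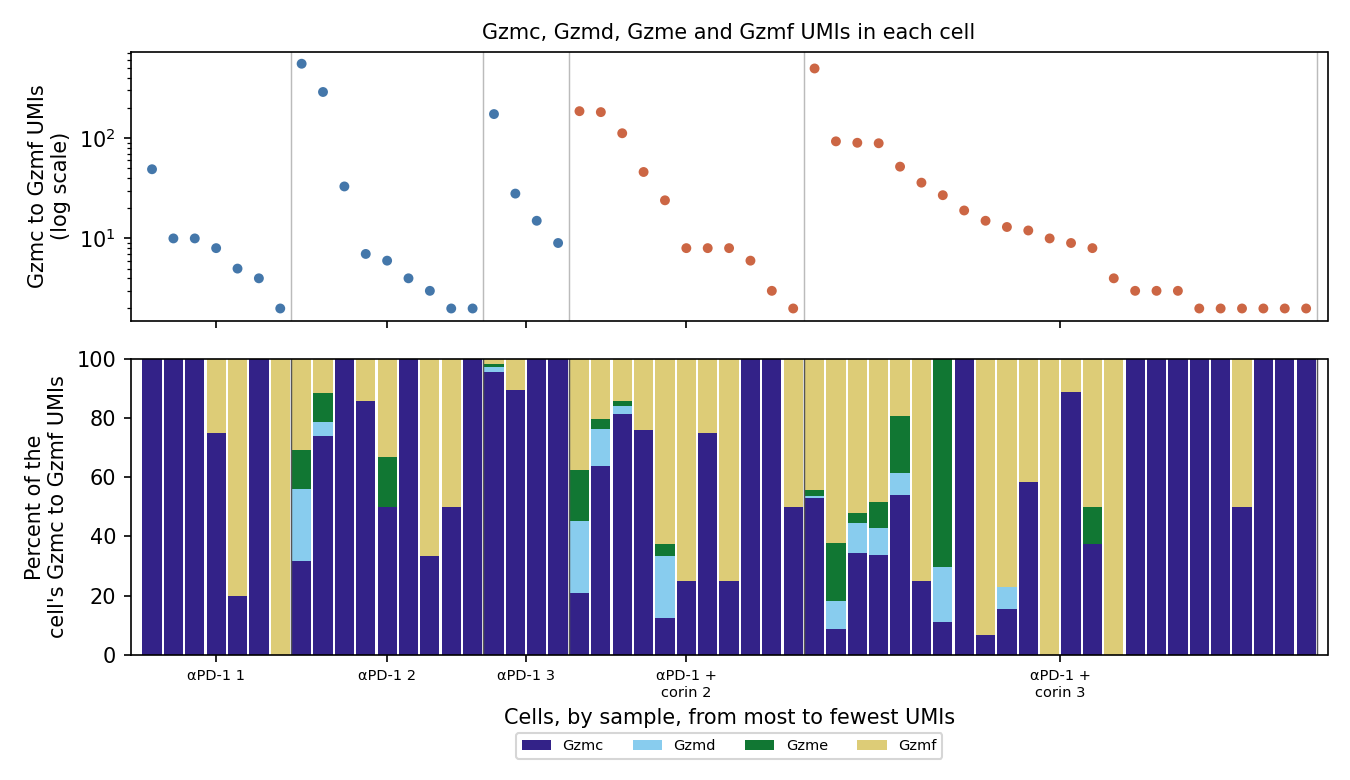
UMIs of Gzmc to Gzmf in each of the 55 cells (upper panel, log scale) and the percent of them that each gene took (lower panel), by sample from most to fewest UMIs. The highest cell holds 553 UMIs, and bars with all 4 colors stand mostly among the highest cells of a sample.

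The genes were not equally abundant. Gzmc (ENSMUSG00000079186) was seen in 52 of the 55 cells and gave 1471 UMIs, or 52.7% of the sum. Gzmf (ENSMUSG00000015441) was seen in 34 cells with 840 UMIs (30.1%). Gzmd (ENSMUSG00000059256) gave 265 UMIs in 14 cells and Gzme (ENSMUSG00000022156) 216 UMIs in 15 cells. A single gene was seen in 23 cells, 2 genes in 16, 3 genes in 4 and all 4 genes in 12. The 14 Gzmd cells and the 15 Gzme cells all had Gzmc, as most cells did, and 13 cells had both Gzmd and Gzme. Of the 34 Gzmf cells 31 had Gzmc, and Gzmf was seen in 13 of the Gzmd cells and 14 of the Gzme cells. The balance differed between samples. Gzmc took 90.9%, 48.9% and 95.1% of the UMIs under αPD-1 and 52.0% in αPD-1 + corin sample 2. In αPD-1 + corin sample 3 Gzmf took 45.6% and Gzmc 43.5%. Single cells shaped these shares. Without the top cell of each sample Gzmc took 79.5%, 76.3% and 94.2% under αPD-1, and 66.4% and 33.9% in αPD-1 + corin samples 2 and 3. αPD-1 sample 1 had no UMI of Gzmd or Gzme.

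All 4 genes lie on the minus strand of chromosome 14 (GRCm39), within 124.1 kb, in the order Gzme, Gzmd, Gzmf, Gzmc, with Gzmg and Gzmn between Gzmd and Gzmf and with Gzmb beside Gzmc. Gzmb gave 1438 UMIs in 54 of the 55 cells. Gzmg gave 28 UMIs in 3 cells, all with at least 20 UMIs of Gzmc to Gzmf, and Gzmn gave none. The transcripts of Gzmd and Gzme were 94.8% identical, Gzmf was 87.6% identical to each, and Gzmc 76.0% to 76.2% identical to the other 3. Of the 90-base windows of a transcript, 19 of 875 for Gzmd, 8 of 827 for Gzme and 13 of 820 for Gzmg occurred exactly in a neighbor, and none for Gzmc, Gzmf, Gzmb or Gzmn. The first window of each transcript, at its 5′ end, was found in no neighbor, so reads of that window can be told apart. From which windows the counted reads came was not tested.

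**Figure D2:**
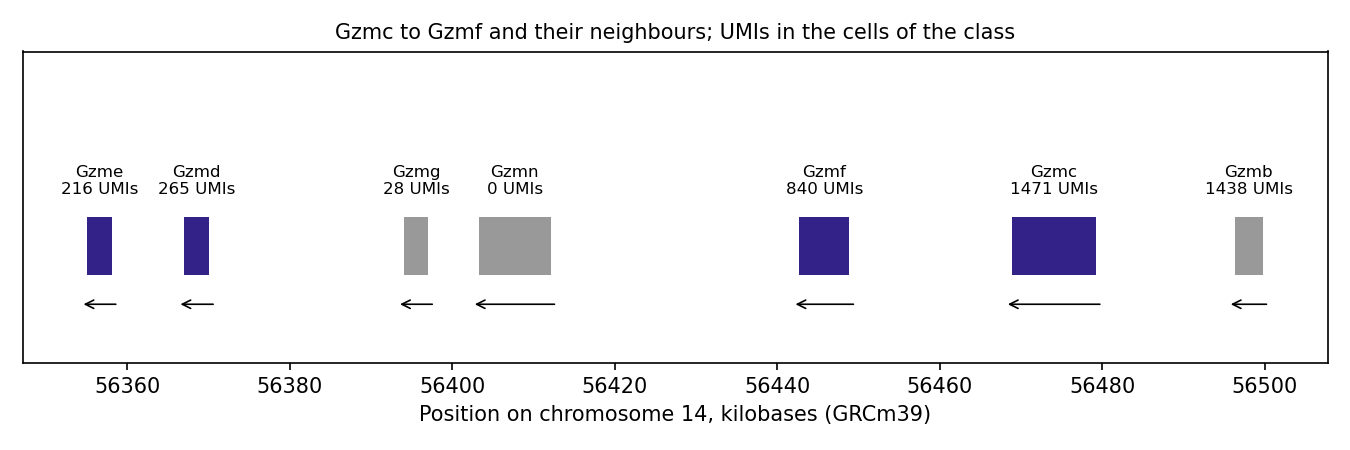
The granzyme cluster on mouse chromosome 14 (kilobases, GRCm39) with the UMIs that each gene gave in the 55 cells; arrows show the direction of transcription. The genes of the rule are dark, and Gzmg and Gzmn between them gave 28 and 0 UMIs.

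Because the 4 genes are neighbors and 12 cells held them all, their promoters are shown, 250 bases before the start of each gene (RefSeq, GRCm38.p6, chromosome 14, minus strand; all 4 genes matched). The positions are chr14:56234658-56234907 for Gzmc, chr14:56132594-56132843 for Gzmd, chr14:56120626-56120875 for Gzme and chr14:56211408-56211657 for Gzmf. Capitals mark TGACGTCA, the letters of a cAMP response element, and TGTGGT or its complement ACCACA, the core letters of a RUNX motif.
Gzmc: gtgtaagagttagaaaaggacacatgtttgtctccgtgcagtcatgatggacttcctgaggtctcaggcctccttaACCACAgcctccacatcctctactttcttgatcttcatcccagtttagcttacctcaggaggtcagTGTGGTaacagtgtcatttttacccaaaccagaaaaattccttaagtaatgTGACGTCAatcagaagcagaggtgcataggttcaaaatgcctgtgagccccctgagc
Gzmd: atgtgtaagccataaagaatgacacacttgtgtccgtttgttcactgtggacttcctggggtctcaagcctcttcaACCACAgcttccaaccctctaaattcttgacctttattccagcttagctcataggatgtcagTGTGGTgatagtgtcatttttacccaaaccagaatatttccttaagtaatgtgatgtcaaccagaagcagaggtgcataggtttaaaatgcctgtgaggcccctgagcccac
Gzme: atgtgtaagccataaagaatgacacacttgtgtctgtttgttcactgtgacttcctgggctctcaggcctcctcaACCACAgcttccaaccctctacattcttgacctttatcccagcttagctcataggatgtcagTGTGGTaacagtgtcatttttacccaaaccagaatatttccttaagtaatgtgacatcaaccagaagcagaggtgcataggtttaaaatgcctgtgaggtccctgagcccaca
Gzmf: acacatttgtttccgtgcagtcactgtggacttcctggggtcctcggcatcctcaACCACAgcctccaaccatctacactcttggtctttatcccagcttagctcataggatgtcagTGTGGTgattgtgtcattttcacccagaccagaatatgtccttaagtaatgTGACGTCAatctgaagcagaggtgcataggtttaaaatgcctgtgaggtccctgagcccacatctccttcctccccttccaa

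Each promoter held the RUNX letters 2 times, once on each strand. Both strands of 32851 RefSeq promoters were searched, and 4614 of them (14%) held TGTGGT at least 1 time. The 8 letters of the cAMP response element stood in the promoters of Gzmc and Gzmf, 57 and 82 bases before the start, and in 1.55% of all promoters. The promoters of Gzmd and Gzme did not hold them. Neither match was limited to the 4 genes: the promoter of Gzmg, with 28 UMIs, held the cAMP response element 77 bases before the start and the RUNX letters 2 times, and that of Gzmb the RUNX letters 2 times and no cAMP response element. Searches for TGANTCA (AP-1, in 6.75% of promoters), TTCNNNGAA (STAT, 7.02%), GGAAAA (NFAT, 20.4%), GCGTGGGCG (EGR, 0.536%), AGGTGTGA (T-box, 1.12%) and TATAAA (12.4%) found no match in these 4 windows. All 4 promoters shared the 20-base run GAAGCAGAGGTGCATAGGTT. The 4 promoters were 84.4% to 95.6% identical to each other, with Gzmd and Gzme the closest pair. Matches that all 4 share are therefore not independent of each other. The promoter of Gzmb was 57.1% to 66.0% identical to the 4. These are matches of letters, and no binding was measured.

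Markers that the rule had not used were compared with other cell types. Prf1 was seen in 49 of the 55 cells (89.1%) and Ccl3 in 46 (83.6%). Among 2892 B cells, which serve here as a baseline for free RNA, 1.35% had a Prf1 UMI at a median of 1952.5 UMIs, and among 7686 macrophages 0.638% at a median of 3924 UMIs. Prf1 was also seen in 52.2% of NK cells and 39.2% of other CD8 T cells. All 69 cycling CD8 T cells with at least 2 UMIs of Gzmc to Gzmf had it. Ccl3 is also made by macrophages and neutrophils and separates the cells less clearly. The 2 γδ T cell genes, Trdc and Tcrg-C1, had no UMI in the cells. Markers of other types were partly present. Of 6 NK cell markers Klra8 and Klra4 were at 0, and the list gave 48 UMIs, 23 of them of Txk. It summed to 100, 148 and 224 CPM (UMIs scaled to a common total of the sum) under αPD-1 and to 30.6 and 159 in αPD-1 + corin samples 2 and 3. The other CD8 T cells held 187, 204 and 188, then 173 and 128, so the list was higher in the cells of αPD-1 sample 3 and αPD-1 + corin sample 3 and lower in the others. Pooled, this was 134 CPM against 159. Of 5 markers of CD4 and regulatory T cells only Foxp3 was at 0, and the others gave 256 UMIs, with Ctla4, which activated CD8 T cells also make, at 105. They summed to 703, 629 and 383 CPM under αPD-1 and 810 and 790 in αPD-1 + corin samples 2 and 3, or 714 pooled against 384 in other CD8 T cells. By sample the other CD8 T cells held 275, 284 and 387, then 483 and 448, so αPD-1 sample 3 showed no excess. The list also holds Il2ra, whose rise in the cells is given below. Melanoma markers (5 genes, none at 0, Dct most abundant) gave 33 UMIs and summed to 502, 49.3 and 32.0 CPM under αPD-1 and 61.1 and 59.7 in αPD-1 + corin samples 2 and 3. The other CD8 T cells held 42.8, 49.9 and 80.1, then 134 and 193, so only the cells of αPD-1 sample 1 stood above them. The part of RNA from these other cells was not tested.

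RNA of Gzmc to Gzmf was not limited to these 55 cells. At least 2 UMIs were also found in 69 of 610 cycling CD8 T cells (11.3%) and 23 of 291 NK cells (7.90%). The share was 1 of 352 CD4 T cells, 3 of 2892 B cells (0.104%) and 5 of 7686 macrophages (0.0651%), classes in which these genes are not known to be made. NK cells and cycling CD8 T cells stood well above these. The median depth was 2363 UMIs in NK cells and 3924 UMIs in macrophages. In cycling CD8 T cells the median ran from 4914.5 to 8423 UMIs by sample, and the part of depth was not tested.

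The share of CD8 T cells that the class made up was 2.94%, 3.38% and 1.90% in αPD-1 samples 1 to 3. With corin it was 0%, 7.14% and 3.74%. The 0 of 90 cells in αPD-1 + corin sample 1 allows a share of up to 3.33% (3 counts of the total), and the upper end of its Wilson 95% interval was 4.09%. The Wilson interval of sample 2 ran from 4.03% to 12.3%. The groups overlapped, with the lowest and the highest share both in the αPD-1 + corin group. The means were 2.74% ± 0.759 (SD, n = 3) and 3.63% ± 3.57 (SD, n = 3), and the difference of 0.886 percentage points was within the spread between samples (two-sided exact permutation test, p = 0.7, adjusted p = 0.7 over 2 tests). With 3 samples against 3 the smallest possible p is 0.1. Without αPD-1 + corin sample 2 the difference turned to -0.871 points, and without sample 1 it was 2.70 points, so single samples decided its sign and size. Among Gzmb-positive CD8 T cells alone, with the class itself added to the denominator, it was -2.84 points.

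The rule without its cycling term was met by 13, 20 and 7 cells of the αPD-1 samples, and by 32 and 52 cells of αPD-1 + corin samples 2 and 3. Of these, 46.2%, 55.0% and 42.9% held at least 2 UMIs of Mki67 and Top2a in the αPD-1 samples. In the αPD-1 + corin samples 65.6% and 53.8% did, so the groups overlapped. A count of at least 2 UMIs depends on depth. The means were 48.0% ± 6.28 (SD, n = 3) and 59.7% ± 8.33 (SD, n = 2), a difference of 11.7 percentage points (two-sided exact permutation test, p = 0.4, adjusted p = 0.7), where the smallest possible p is 0.2. The difference was 5.84 points without αPD-1 + corin sample 2 and 17.6 points without sample 3. Cycling cells held more UMIs, with a median of 9106. After each cell was thinned to 1500 UMIs the difference was -19.0 points, with means of 29.7% and 10.7%, so its sign changed with thinning. The thinned shares were 1 of 11, 1 of 5 and 3 of 5 cells under αPD-1, and 4 of 23 and 1 of 25 in αPD-1 + corin samples 2 and 3.

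**Figure D3:**
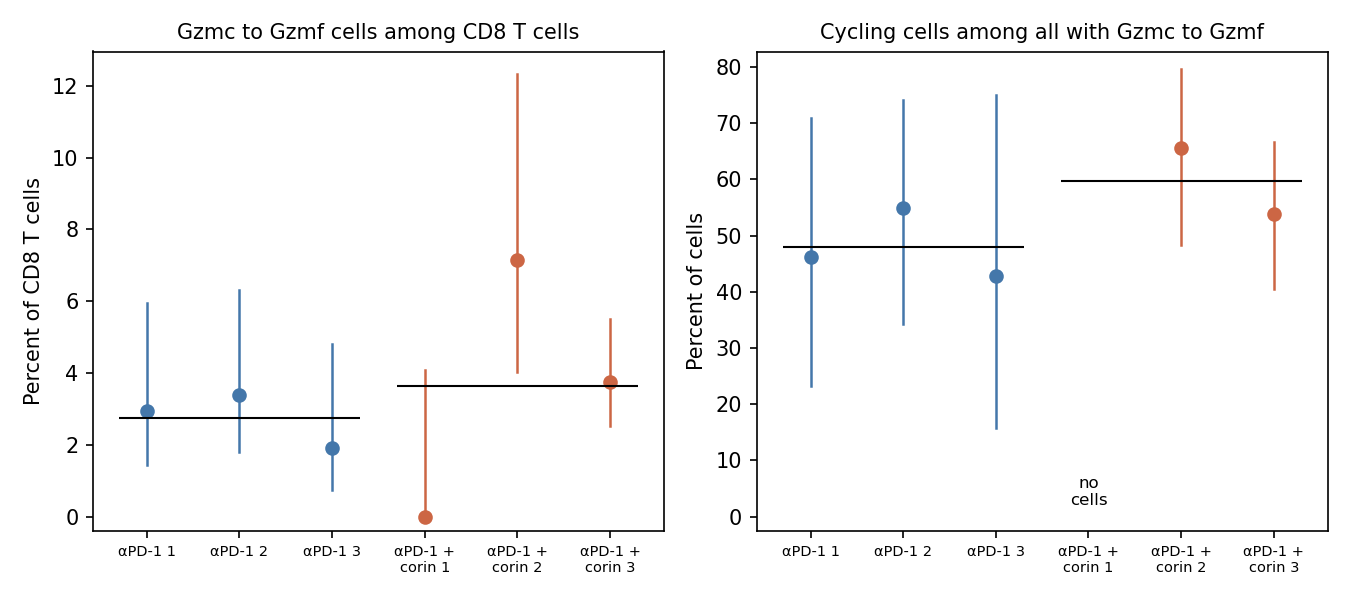
Percent of CD8 T cells with at least 2 UMIs of Gzmc to Gzmf and few cycling UMIs (left) and percent of cycling cells among all CD8 T cells with at least 2 such UMIs (right). Points are samples, vertical lines Wilson 95% intervals and horizontal lines group means; αPD-1 + corin sample 1 has a share of 0% and no cell for the right panel.

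To see what else set the cells apart, their UMIs were summed per sample and compared with sums over the other CD8 T cells of the same samples, in the 4 samples with at least 5 of the cells (samples 1 and 2 of αPD-1, samples 2 and 3 of αPD-1 + corin). Of 7251 genes tested outside the rule, edgeR called 95 higher in the cells (1.31%) and 270 lower (3.72%) at an adjusted p under 0.05. Of these, 80 and 242 had the same direction in all 4 samples. The counts rest on all samples: the higher count was 54 and 51 without αPD-1 sample 1 or 2, and the lower count was 133, 155 and 166 without αPD-1 sample 1, αPD-1 sample 2 or αPD-1 + corin sample 2. DESeq2 called 56 and 73. For each gene list compared with other CD8 T cells below, the shares over all genes were 1.31% higher and 3.72% lower. The median log2 fold change over all genes was -0.11.

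Prf1 and Gzmb were among the 10 largest rises. Prf1 stood at 247, 281, 424 and 477 CPM in the other CD8 T cells of the 4 samples (αPD-1 1 and 2, then αPD-1 + corin 2 and 3), and at 2008, 2157, 2108 and 1905 in the cells. The cells of all samples lay within a narrow band, far above the other CD8 T cells (log2 fold change 2.41 ± 0.21 SE, adjusted p = 2.47e-28). Gzmb stood at 578, 466, 639 and 1292 CPM against 4149, 4646, 1497 and 4880 (log2 fold change 2.20 ± 0.21 SE, adjusted p = 5.15e-23). In the cells it was high in 3 samples and clearly lower in αPD-1 + corin sample 2, though still above the other CD8 T cells there. Of 15 granule genes tested besides Gzmg, 5 rose and none fell, with a median log2 fold change of 0.41 against -0.11 over all genes. Besides Prf1 and Gzmb these were Serpinb9 (1.85), the inhibitor that shields a killer cell from its own granzyme B, Serpinb6b (1.69), a related serpin, and Cst7 (1.34), an inhibitor of the proteases that process granzymes. These 5 calls held with each of the 4 samples left out. In cells of 2000 to 6000 UMIs Serpinb6b (1.32) and Cst7 (0.98) were not called (adjusted p = 0.178 and 0.152). Gzmg was also called but is not counted, since it was nearly absent from the comparator (0, 0, 1.35 and 0.81 CPM) and stood at 0, 173, 61.1 and 66.4 in the cells, so that αPD-1 sample 1 had none in either class. Gzma, the other main granzyme, was nearly absent, with 5 UMIs in 2 of the 55 cells, and Gzmk had 26 UMIs in 13 cells (log2 fold changes -1.77 and -0.29, adjusted p = 0.0659 and 0.798). Gzmm and Gzmn were too low to be tested.

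Some receptors of growth signals were also higher. Il2ra, the high-affinity chain of the interleukin 2 receptor, stood at 20.0, 16.0, 36.4 and 29.1 CPM in other CD8 T cells and at 134, 136, 199 and 266 in the cells (log2 fold change 2.84 ± 0.33 SE, adjusted p = 2.84e-15). Its values did not overlap between the classes. Il2ra also belongs to the markers of CD4 and regulatory T cells given above, whose pooled sum was higher in the cells. Of 11 costimulatory receptors 3 rose and none fell, where 1.31% of all genes rose, and the median log2 fold change was 0.10 against -0.11 over all genes. All 3 came from the tumor necrosis factor receptor family: Tnfrsf4 (OX40, 2.08), Tnfrsf9 (4-1BB, 1.94) and Tnfrsf18 (GITR, 1.43). Tnfrsf9 rose from 235, 191, 310 and 259 to 1740, 1048, 932 and 737 CPM. These 3 calls and that of Il2ra held with each sample left out. Il2ra was the only rise among 13 genes of the activation response tested, and Egr1, an early response gene, fell (-0.90), a call that ended without αPD-1 sample 1, αPD-1 sample 2 or αPD-1 + corin sample 2 (adjusted p = 0.161, 0.127 and 0.200). Cd28 and Icos, costimulatory receptors of the other family, had log2 fold changes of 0.02 and 0.31.

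The other genes with the largest rises have less familiar roles in T cells. Serpine2, a secreted inhibitor of serine proteases, rose by 3.14 on the log2 scale and Serpinb9b, a serpin inside cells, by 3.00. Nrn1, which encodes neuritin, rose by 2.67, AA467197, a small mitochondrial protein, by 2.60, Dscam, an adhesion molecule of neurons, by 2.54 and Gldc, a mitochondrial enzyme that breaks down glycine, by 2.04. Levels varied between samples: Serpine2 stood at 887 CPM in the cells of αPD-1 sample 2 and at 167, 214 and 378 in αPD-1 sample 1 and αPD-1 + corin samples 2 and 3, while Dscam ran from 73.0 to 504 and Serpinb9b from 37.0 to 219. All 6 kept their calls with each sample left out, but Serpinb9b lost its call when 7 cells per sample were drawn (adjusted p = 0.167) and Dscam in cells of 2000 to 6000 UMIs (0.0941).

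**Figure D4:**
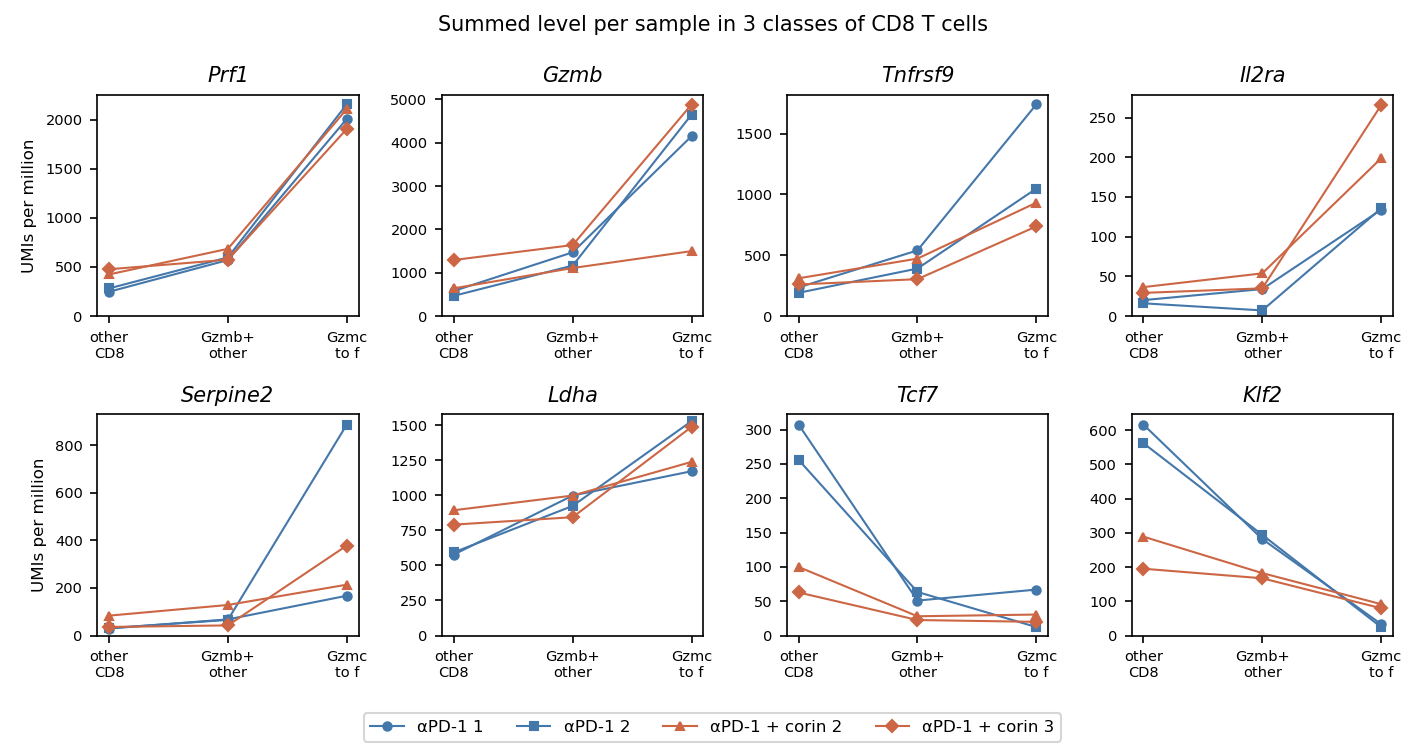
Levels (CPM, UMIs scaled to a common total) of 8 genes in sums over other CD8 T cells, the Gzmb-positive cells among them, and the cells with Gzmc to Gzmf, with 1 line for each of 4 samples (αPD-1 blue, αPD-1 + corin orange). Prf1 runs from 247 to 477, then 570 to 685, then 1905 to 2157, and Klf2 falls from the first class to the last.

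Genes of naive and memory T cells moved the other way. Of 14 tested, 13 fell and none rose, where 3.72% of all genes fell. Their median log2 fold change was -2.56, against -0.11 over all genes. Klf2, a factor that keeps T cells in circulation, stood at 616, 562, 289 and 195 CPM in other CD8 T cells and at 33.5, 24.6, 91.7 and 79.7 in the cells (-2.52 ± 0.32 SE, adjusted p = 9.69e-13). Tcf7 (-2.61) and Lef1 (-2.62), factors of naive and stem-like cells, fell too, with Id3 (-3.15), Cd7 (-2.08) and Bach2 (-1.72). These calls held with each sample left out, and 6 of the 13 did not: those of Dapl1, Slamf6, Il7r, Satb1 and Bcl2 ended without αPD-1 sample 2 (adjusted p = 0.0837, 0.0851, 0.115, 0.200 and 0.470) and that of S1pr1 without αPD-1 + corin sample 3 (0.0773). In cells of 2000 to 6000 UMIs Tcf7 (-2.09), Lef1 (-1.79) and Bach2 (-1.59) were not called (adjusted p = 0.124, 0.193 and 0.193). Cd7 (-4.17) was not called under DESeq2 (adjusted p = 0.121). Among the 10 largest falls, beside Id3, were Fgf13 (-4.15), Scml4 (-3.16), Ifi213 (-2.73) and Gm26740 (-2.72).

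Inhibitory receptors were listed together with Tox, a factor of exhausted cells. Of 15 genes tested 3 were called higher, Entpd1 (0.99), Havcr2 (0.90) and Pdcd1 (0.77), and none lower, with a median of 0.02. All 3 calls ended without αPD-1 sample 1 (adjusted p = 0.132, 0.111 and 0.351) and also without other samples. Lag3, Tigit and Ctla4 had log2 fold changes of 0.72, 0.02 and 0.57, and Tox -0.46, none past the threshold. Of 16 effector transcription factors, Bhlhe40 (1.04) held with each sample left out, Irf8 (0.72) did not (adjusted p = 0.714 without αPD-1 + corin sample 3), and none fell. Tbx21, Eomes and Prdm1 had values of 0.43, -0.53 and 0.45 and were not called. Against Gzmb-positive cells Bhlhe40 was the only call among 15 of these factors. It ended without αPD-1 sample 2 (0.74), αPD-1 + corin sample 2 (0.79) or αPD-1 + corin sample 3 (0.73).

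Of 15 chemokines and cytokines 2 rose and 1 fell. Ccl3, a chemokine for monocytes and T cells, stood at 700, 561, 2308 and 1203 CPM in other CD8 T cells and at 2911, 1849, 2597 and 1368 in the cells (log2 fold change 0.86, adjusted p = 0.00128). The rise was large in both αPD-1 samples and small in both αPD-1 + corin samples. The call ended without αPD-1 sample 1 or 2 (adjusted p = 0.224 and 0.193), under DESeq2 (0.0956) and in cells of 2000 to 6000 UMIs (0.391). Against Gzmb-positive cells alone Ccl3 was not called (log2 fold change 0.45, adjusted p = 0.0667). Neutrophils, whose RNA was present in αPD-1 + corin sample 2, held 7129 CPM of Ccl3, and their part in its level was not tested. Ccl9 rose by 1.67 and lost its call without αPD-1 sample 2 (adjusted p = 0.136). Tnf fell by 2.20, to 0, 0, 15.3 and 59.7 CPM, while Ifng (0.50) and Ccl4 (0.07) were not called. So the cells, rich in granule RNA, had little Tnf RNA. The call of Tnf held with each sample left out but not in cells of 2000 to 6000 UMIs (-2.35, adjusted p = 0.103). Against Gzmb-positive cells Tnf was called lower too, but not under DESeq2 (-2.43, adjusted p = 0.152). That call also ended without αPD-1 sample 2 (-1.64) or αPD-1 + corin sample 2 (-1.94).

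Among NK-type receptors Klrc1 (1.23), Klrk1 (0.97) and Klrd1 (0.79) rose and Tyrobp fell by 1.61, of 9 tested. Klrc1 and Klrd1 encode the NKG2A-CD94 pair and Klrk1 the activating receptor NKG2D. The calls of Klrk1 and Klrd1 ended without αPD-1 sample 1 (adjusted p = 0.106 and 0.473) or 2 (0.366 and 0.0863). That of Klrc1 held with each sample left out but not in cells of 2000 to 6000 UMIs (0.89, adjusted p = 0.427). Against Gzmb-positive cells 0 of 8 NK-type receptors tested were called higher and 1 lower, Tyrobp. Their median there was 0.68, with 5 above 0. Of 16 residency and homing genes 2 fell against other CD8 T cells, Cxcr3 (-2.54) and Itgae, which had no UMI in the cells and 10.1 to 32.9 CPM in other CD8 T cells. Both calls ended without αPD-1 + corin sample 3 (adjusted p = 0.118 and 0.102).

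Enzymes of glycolysis, the breakdown of glucose that dividing and killing cells rely on, were also listed. Of 14 tested 6 rose and none fell, where 1.31% of all genes rose and 3.72% fell. Their median was 0.56, against -0.11 over all genes. The 6 were Eno1, Ldha, Aldoa, Gapdh, Pgk1 and Tpi1 with 0.94, 0.81, 0.79, 0.75, 0.71 and 0.68. Ldha stood at 577, 593, 893 and 791 CPM against 1171, 1528, 1238 and 1487. Each of the 6 calls ended with at least 1 sample left out, for Ldha, Aldoa, Gapdh, Pgk1 and Tpi1 without αPD-1 sample 2 (adjusted p = 0.119, 0.0818, 0.337, 0.269 and 0.512) and for Eno1 without αPD-1 + corin sample 3 (0.0662). Of 19 interferon-stimulated genes 10 were called lower, none higher and 9 not, where 3.72% of all genes fell. Their median was -1.13, with 1 above 0, against -0.11 over all genes. Irf7, a factor that amplifies interferon responses, stood at 89.5, 115, 131 and 78.1 CPM against 0, 49.3, 15.3 and 19.9. Of these calls 4 held with each sample left out and 6 did not. Isg15, Irf7, Irgm1 and Ifit3 held, the latter with no UMI in the cells, which is at least 4.48-fold lower (against 3 UMIs over the 4 samples), 2.74-fold without αPD-1 + corin sample 3 and 2.95-fold without αPD-1 sample 2. In cells of 2000 to 6000 UMIs Isg15 (-1.61) and Irf7 (-2.22) were not called (adjusted p = 0.176 and 0.309). For Irgm1 and Ifit3 DESeq2 gave no adjusted p. None of 15 genes of MHC class I presentation and none of 10 genes of the CoREST complex, the target of corin, was called.

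Signs of handling and of other cells also differed between the classes. Of 17 genes that respond to dissociation, 13 fell, where 3.72% of all genes fell, and 7 of these calls held with each sample left out. Without αPD-1 sample 1 those of Btg2, Hsp90aa1, Hsph1, Ier2 and Jun ended (adjusted p = 0.0773, 0.578, 0.250, 0.0940 and 0.0644), and without αPD-1 sample 2 that of Fosb (0.153). The 17 genes had summed levels of 8566, 8947, 7349 and 9806 CPM in the cells and 16899, 16753, 10915 and 12976 in other CD8 T cells. Their most abundant gene in the cells was Hspa8. Macrophage markers (8 genes, Ctsb most abundant, Csf1r at 0) summed to 535, 912, 413 and 339 against 851, 902, 1427 and 1451, and 4 of 7 tested fell. Of these 4 only Lyz2 held with each sample left out. Without αPD-1 + corin sample 2 the calls of Apoe and Cd68 ended (adjusted p = 0.123 and 0.175). Dendritic markers (7 genes, Cd74 most abundant, Xcr1 and Clec9a at 0) summed to 435, 592, 1238 and 1175 against 2167, 2170, 3602 and 3364, and 3 of 3 tested fell. These 3 were H2-Aa, Cd74 and H2-Ab1, which other antigen-presenting cells also make, so their fall is not particular to dendritic cell RNA. Of 5 fibroblast and endothelial markers only Pecam1 had UMIs in the cells, 12 in all. Another 4 of the 10 largest falls are genes known from stromal cells and macrophages: Col1a1 and Fn1, with no UMI in the cells and at least 11.8-fold and 11.5-fold lower (against 3 UMIs over the 4 samples), Saa3 (-5.79) and Ccl2 (-2.73). The level of Col1a1 in other CD8 T cells came mostly from 1 sample, at 46.8, 51.7, 4.05 and 329 CPM. Without αPD-1 + corin sample 3 the bounds were 2.01-fold for Col1a1 and 5.24-fold for Fn1. Macrophages held 883, 592 and 2642 CPM of Fn1, Saa3 and Ccl2. The calls of Col1a1 and Saa3 ended without αPD-1 + corin sample 3 (adjusted p = 0.0657 and 0.123). The part of handling and of RNA from other cells in these falls was not tested.

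A sharper comparison set the cells against the 767 other CD8 T cells that held Gzmb, at a median depth of 3779 UMIs. Gzmb was not tested here. Of 4633 genes edgeR called 37 higher (0.799%) and 77 lower (1.66%), of which 32 and 61 had the same direction in all 4 samples. The higher count was 15 without αPD-1 + corin sample 3 and 22 without αPD-1 sample 2, and the lower count was 17, 33 and 46 without αPD-1 + corin sample 3, αPD-1 + corin sample 2 or αPD-1 sample 2. DESeq2 called 26 and 18. Among cells with 2000 to 6000 UMIs, where αPD-1 sample 2 had too few cells and 1914 genes were tested, 1 gene was called in each direction.

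Prf1 stood at 570, 597, 685 and 574 CPM in the Gzmb-positive cells, about as uniform as in the Gzmc to Gzmf cells and everywhere far lower (log2 fold change 1.73 ± 0.14 SE, adjusted p = 1.12e-13). Prf1 was the 8th of the 10 largest rises, and the others were Il2ra (2.66), Serpine2 (2.56), Serpinb9b (2.42), Nrn1 (2.37), AA467197 (2.23), Dscam (2.04), Il1r2 (1.91), a decoy receptor for interleukin 1, Tnfrsf4 (1.69) and Fdps (1.60), an enzyme of sterol synthesis. Of the 37 higher calls 36 (97.3%) were among the 95 against other CD8 T cells, which is 37.9% of those, and of the 77 lower calls 73 (94.8%) were among the 270, or 27.0% of those. The comparisons share the cells, so this overlap is no independent support. Without αPD-1 + corin sample 3 the calls of Serpinb9b, Nrn1, Il1r2, Tnfrsf4 and Fdps ended (adjusted p = 0.402, 0.0691, 0.0889, 0.127 and 0.0658), and that of Fdps also without αPD-1 sample 2 or αPD-1 + corin sample 2 (0.117 and 0.0954). Neutrophils held 1149 CPM of Il1r2. Within 2000 to 6000 UMIs Prf1 had a log2 fold change of 1.30 and Il2ra of 2.36, in the same direction but not past the threshold (adjusted p = 0.103 and 0.184). When 7 cells per sample were drawn, Il2ra (2.06) and Serpinb9b (1.21) were not called either (adjusted p = 0.104 and 0.760). Il1r2 (1.06), Tnfrsf4 (1.13) and Fdps (1.60) also lost their calls in that draw (adjusted p = 0.365, 0.228 and 0.270).

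Against Gzmb-positive cells fewer genes were tested and fewer were called, so lists were also compared by their median, which was -0.02 over all genes. Over all genes 0.799% rose and 1.66% fell. Of 11 naive and memory genes 1 fell, Klf2 (-1.74, adjusted p = 0.0708 without αPD-1 sample 2), and Tcf7 had a value of -0.52. Their median was -1.02, with 1 of 11 above 0. Of 15 interferon-stimulated genes 2 fell, with a median of -0.81 and 0 above 0, and neither call held with each sample left out. None of 12 inhibitory receptor genes was called. Of 13 glycolysis genes 11 were above 0, with a median of 0.37, and 1 was called, Ldha (0.54), which lost its call without αPD-1 sample 2, αPD-1 + corin sample 2 or αPD-1 + corin sample 3 (adjusted p = 0.347, 0.0593 and 0.526). Of 13 granule genes tested besides Gzmg 4 rose, Prf1, Serpinb9 (1.44), Serpinb6b (1.31) and Cst7 (1.02), against 0.799% of all genes, and their median was 0.15. Serpinb9 and Serpinb6b lost their calls without αPD-1 + corin sample 3 (adjusted p = 0.0609 and 0.0687). Of 11 costimulatory receptors 3 rose, the same 3 as before. Tnfrsf9 rose by 1.32 and held with each sample left out, while Tnfrsf18 (1.12) lost its call without αPD-1 sample 1 or αPD-1 + corin sample 3 (adjusted p = 0.0767 and 0.216). The 5 named falls were Fn1, with no UMI in the cells and at least 13.7-fold lower (8.25-fold without αPD-1 + corin sample 2 and 7.67-fold without sample 3), Ccl2 (-2.54), Apoe (-2.26), Plbd1 (-2.21) and Cxcl2 (-2.16), all higher in macrophages or neutrophils than in the cells, with 5793 CPM of Apoe in macrophages and 22616 of Cxcl2 in neutrophils. Summed macrophage markers stood at 903, 1098, 1591 and 1327 CPM in the Gzmb-positive cells, above the cells in every sample. The same 3 genes of the dendritic list, H2-Aa, Cd74 and H2-Ab1, fell here too, and held with each sample left out. Of 17 dissociation genes 6 fell, of which only Dnajb1 held: without αPD-1 + corin sample 3 the calls of Dusp1, Fosb, Hspa1a, Hspa1b and Zfp36 ended (adjusted p = 0.183, 0.402, 0.142, 0.226 and 0.365). The part of other cells and of handling in these falls was not tested. The calls of Ccl2 and Plbd1 ended without αPD-1 + corin sample 3 (adjusted p = 0.0772 and 0.203) and that of Apoe without αPD-1 + corin sample 2 (0.308). Cxcl2 held with each sample left out but not under DESeq2 (adjusted p = 0.0590), and in cells of 2000 to 6000 UMIs its log2 fold change was -0.45 (adjusted p = 0.963).

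At equal depth some genes were still detected in more of the cells. After thinning to 1500 UMIs, Prf1 was seen in 72.2% of 54 cells, 42.2% of 737 Gzmb-positive cells and 26.1% of 1432 other CD8 T cells. Tnfrsf9 was seen in 59.3%, 29.2% and 18.5%, Il2ra in 16.7%, 4.34% and 2.72%, and Havcr2 in 37.0%, 22.8% and 15.8%. Other genes did not follow this order: Ccl4 was seen in 57.4%, 59.3% and 41.2%, Pdcd1 in 37.0%, 37.0% and 24.4%, Gzmk in 13.0%, 19.1% and 13.3%, and Xcl1 in 7.41%, 6.24% and 8.31%. By sample, Prf1 was seen in 57.1%, 66.7% and 50% of the cells under αPD-1 and in 63.6% and 87.0% in αPD-1 + corin samples 2 and 3, against 35.6%, 37.5%, 31.8%, 52.2% and 46.2% of Gzmb-positive cells, so for Prf1 every sample had the same direction. Tnfrsf9 (45.5% against 53.7%) and, slightly, Havcr2 (27.3% against 28.4%) were lower in the cells of αPD-1 + corin sample 2. Il2ra was seen in only 2, 0, 0, 1 and 6 cells, so its share rested on αPD-1 sample 1 and αPD-1 + corin sample 3. In B cells, without thinning, Prf1, Tnfrsf9, Il2ra and Havcr2 were seen in 1.35%, 1.76%, 1.45% and 2.35%. Tcf7 was seen in 3.70%, 4.21% and 18.4%, where 3.04% of B cells and 92 of 7686 macrophages, without thinning, had it. These shares were not tested.

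The class and its margin can be split by their UMIs of Gzmc to Gzmf, the counts that the rule used. Prf1 stood at 1115 CPM in the 44 cells with 1 such UMI, outside the rule. Inside it Prf1 stood at 1085 in cells with 2 to 4 UMIs, 1217 with 5 to 19 and 3451 with 20 or more. Gzmb stood at 2585, 2286, 2967 and 6187 in the same 4 tiers. The highest tier was also the deepest, with a median of 7562 UMIs against 4600.5, 5309.5 and 4426 in the tiers before it. Tnfrsf9 stood at 668, 690, 599 and 1500 and Il2ra at 97.4, 117, 159 and 293. Other genes ran differently: Ccl3 stood at 3090, 1309, 2059 and 2065, Ifng at 1651, 520, 674 and 522, Klrc1 at 173, 323, 215 and 257 and Gzma at 102, 0, 37.4 and 7.14, so that several genes changed most between the cells just outside and just inside the rule. Of the 44 cells outside, 28 came from αPD-1 + corin sample 3. Tiers differ in their mix of samples and depth, and no test was made.

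The treatments were compared within the cells over the same 4 samples, 2 per group. edgeR called 0 of 1139 genes at an adjusted p under 0.05 in either direction (0%), where 47 (4.13%) had an unadjusted p under 0.05, and DESeq2 called 0, with 19 at an unadjusted p under 0.05. With 1 sample left out, the fit assumes that the lone sample of a group varies like the others. It then called 9 higher and 4 lower without αPD-1 sample 1, 9 and 4 without αPD-1 sample 2, 3 and 1 without αPD-1 + corin sample 2, and 22 and 7 without αPD-1 + corin sample 3. Prf1 differed little, with a log2 fold change of -0.02 ± 0.25 SE, and Gzmb and Ccl3 had values of -0.42 and -0.21 (adjusted p = 0.999, 0.979 and 0.979).

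The genes with the smallest p are named although none passed. With higher values in αPD-1 + corin these were AY036118 (1.46), Gm42418 (0.87), Cd74 (1.40), S100a9 and S100a8, and with lower values Ppp1ca (-1.20), Hmgb2 (-1.32), CAAA01147332.1 (-1.56), Fos (-0.97) and Tmsb4x (-0.50). The smallest adjusted p was 0.401. S100a9 and S100a8 encode calcium-binding proteins that are abundant in the cytosol of neutrophils. They had no UMI in the cells of αPD-1 samples 1 and 2 and stood at 5852 and 352 (S100a9) and 1925 and 173 (S100a8) CPM in αPD-1 + corin samples 2 and 3. A single cell of αPD-1 + corin sample 2 held 324 of the 436 UMIs of S100a9. Summed over 5 neutrophil markers, with S100a9 most abundant and none at 0, the other CD8 T cells of that sample reached 10112 CPM, against 5.64 to 3662 in the other samples, and the part of neutrophil RNA was not tested. AY036118 and Gm42418 overlap ribosomal RNA genes, and Cd74 belongs to antigen-presenting cells, with 10515 CPM in B cells. Cd74 stood at 268 and 296 CPM in the cells of αPD-1 samples 1 and 2 and at 749 and 724 in αPD-1 + corin samples 2 and 3. A single cell of αPD-1 + corin sample 3 held 103 of the 191 UMIs of Cd74, so the value of that sample rested mostly on it.

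A class by treatment term asked whether the contrast with other CD8 T cells differed between the treatments. edgeR called 4 genes higher (0.0552%) and 9 lower (0.124%) of 7251, where DESeq2 called 0, with 115 at an unadjusted p under 0.05. The other CD8 T cells of both αPD-1 + corin samples held less Klf2 and Ripor2 and more Ccl3 and Gzmb than those of both αPD-1 samples, so that the comparator moved with the treatment for these 4 genes. Ripor2 stood at 438, 307, 154 and 86.2 CPM in other CD8 T cells and at 0, 12.3, 122 and 59.7 in the cells. With so little in the cells of both αPD-1 samples, the fitted difference of log2 fold changes (4.96, adjusted p = 0.00128) gives the direction and not a size, and the call ended without αPD-1 + corin sample 2 or 3 (adjusted p = 0.0638 and 0.0684). For Gzmb the term was -1.28 (adjusted p = 0.00572), which ended without αPD-1 sample 2 or αPD-1 + corin sample 2 (adjusted p = 0.758 and 1). For Ccl3 it was -1.51 (adjusted p = 0.000704), which ended without αPD-1 sample 2, αPD-1 + corin sample 2 or αPD-1 + corin sample 3 (adjusted p = 0.0879, 0.678 and 0.0821). For Klf2 it was 3.14 (adjusted p = 0.0375), which ended without each of the 4 samples in turn (adjusted p between 0.109 and 1).

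The variable genes of the T cell receptor beta chain differed between samples. In αPD-1 sample 3 all 4 cells carried Trbv16, while Trbv12-1 was most used among its other CD8 T cells (41 of 142 cells with a Trbv gene). In αPD-1 + corin sample 2 the 3 cells with a Trbv gene all carried Trbv31, the most used gene of its other CD8 T cells too (42 of 110). In αPD-1 sample 1 Trbv13-2 was carried by 3 of 4 cells. The cells of the 2 other samples were mixed, with Trbv14 in 2 of 7 in αPD-1 sample 2 and in 5 of 13 in αPD-1 + corin sample 3, where Trbv31 led among the other CD8 T cells (164 of 404). Genes of the alpha chain were counted too. In αPD-1 sample 3 the 4 cells carried 3 different Trav genes, with Trav6n-6 in 2. Trav14-2 was carried by 2 of 4 cells in αPD-1 sample 1 and Trav12-2 by 4 of 7 in αPD-1 + corin sample 2, where it also led among the other CD8 T cells (38 of 81). In αPD-1 sample 2 there were 4 Trav genes in 5 cells and in αPD-1 + corin sample 3 there were 8 in 18. Sharing a Trbv gene does not make cells a clone, and no test was made on these counts.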

How the data were processed

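The authors deposited raw UMI counts per gene and barcode (Cell Ranger 8.0, GRCm39) for 3 αPD-1 and 3 αPD-1 + corin samples, with between 52281422 and 84276739 UMIs per sample. Members and gene lists were chosen with earlier results of these data known. UMIs were summed per sample and class and fitted in edgeR 4.0.16 (quasi-likelihood, TMM, filterByExpr, Benjamini-Hochberg adjusted p under 0.05, sample as block between classes; R 4.3.3), in samples with at least 5 cells. DESeq2 1.42.0 was an alternative. Shares were compared by exact permutation tests over samples (Python 3.11.15, scipy 1.17.1). Doublet scores came from Scrublet in scanpy 1.11.5 (highest 0.4% for each 1000 barcodes marked), and sequences were aligned with Biopython 1.88. The fits were also run on simulated sums with a fixed dispersion and no differences between samples. Such sums do not show how the fits behave where single cells hold most UMIs of a gene. Named genes are the rule genes and granzymes, list members, the 10 largest rises and falls against other CD8 T cells and the 10 largest rises and 5 largest falls against Gzmb-positive ones (called, at least 100 CPM, same direction in every sample), the 5 smallest p each way between treatments (at least 50 CPM) and 3 each way for the class by treatment term. Genes with no UMI in the cells of all 4 samples were bounded with 3 UMIs over the group.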

Additional observations from a re-analysis of the deposited data

Results flagged for a closer look

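For 4 genes the contrast between the Gzmc to Gzmf cells and other CD8 T cells was more positive under αPD-1 + corin than under αPD-1, and for 9 genes more negative, by a test of the class by treatment term (edgeR, adjusted p under 0.05). DESeq2 called 0 genes, with 115 at an unadjusted p under 0.05. The differences of log2 fold changes were 4.96 for Ripor2, 3.14 for Klf2 and 1.54 for Hsp90aa1, and -12.53 for Chsy3, -4.84 for Id1, -3.57 for Trib1, -1.51 for Ccl3 and -1.28 for Gzmb. The fitted values for Chsy3 and Ripor2 depend on cells with almost no UMI and are no sizes. Chsy3 had none in the cells of both αPD-1 + corin samples, and against 3 UMIs over the group its term was at most -7.44. Ripor2 stood at 0 and 12.3 CPM in the cells of the αPD-1 samples. Chsy3 had 15 UMIs in 2 of the 55 cells, of which 14 were in 1 cell of αPD-1 sample 1, and its call ended without that sample (adjusted p = 0.870). Id1 and Trib1 had 17 UMIs each, 14 of those of Id1 in 1 cell of αPD-1 sample 2, and without αPD-1 sample 2 their terms were 4.57 and 5.68. The call of Hsp90aa1, a dissociation stress gene, ended without αPD-1 sample 1 or αPD-1 + corin sample 3 (adjusted p = 0.142 and 1). The part of single cells and of stress in these terms was not tested.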

How the results depend on the processing

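With 3 samples against 3 the share of the class among CD8 T cells differed by 0.886 points, and with the replicate number as a block by the same 0.886 (exact paired permutation, p = 0.75). For the gene tests only replicate 2 had at least 5 cells in both groups. A paired fit of replicates 2 and 3 (samples with at least 1 cell, chosen after seeing the data, 1 residual degree of freedom) called 0 higher and 0 lower of 1150 genes with the replicate block. The share kept its direction in 14 of 16 alternatives, not counting the block, which could not change the difference, and was -2.84 points among Gzmb-positive or Gzmc to Gzmf cells; leaving out 1 sample gave -0.871 to 2.70. The cycling share kept its direction in 10 of 11, not counting αPD-1 + corin sample 1 left out, which had no such cell and could not change it, and was between 5.84 and 17.6 points with 1 sample left out. It was -19.0 after thinning, 1.44 with at least 1 UMI of Gzmc to Gzmf and 23.5 with at least 5.

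Between treatments no filter on low counts called 12 genes higher and 4 lower, and cycling cells kept, an alternative chosen after seeing the data, 7 higher. With 1 sample left out the counts ran from 3 to 22 and from 1 to 7. Fits that leave 1 sample in a group assume that it varies like the others.

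Against other CD8 T cells, DESeq2 called 56 higher and 73 lower, no filter 56 higher, equal cells 54 higher, cells of 2000 to 6000 UMIs 17 and 20 (fewer genes and samples), and cycling cells kept 204 and 469. With 1 sample left out, 51 to 76 were higher and 133 to 183 lower. Against Gzmb-positive cells, DESeq2 called 18 lower, no filter 116 lower, doublets removed 50 lower, equal cells 13 and 26, cells of 2000 to 6000 UMIs 1 and 1, and cycling cells kept 81 and 156. With 1 sample left out, 15 to 39 were higher and 17 to 64 lower.

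For the class by treatment term, DESeq2 called 0 and 0, no filter 2 higher, doublets removed 7 higher, at least 5 UMIs 3 lower, equal cells 19 lower, and cycling cells kept 15 and 29. With 1 sample left out, 0 to 8 were higher and 2 to 11 lower. The range of 2000 to 6000 UMIs was not run for this term.

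Of 1477 values of named genes under alternatives, 1165 kept direction and side of the threshold, 287 were weaker, 18 stronger and 7 reversed. Gm42418 was -0.0485 with samples of at least 1 cell and -0.52 with cycling cells kept, where Hmgb2 was 0.20. Id1 was 4.61 and Trib1 5.34 with at least 5 UMIs, and ran from -5.79 to 4.57 and from -4.42 to 5.68 with 1 sample left out, both highest without αPD-1 sample 2. The cause was not tested. Between treatments depth limited the test to 1139 genes.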
